A study of Mus musculus with 22 samples.

Results

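The genes described here are the chemokine and interleukin ligands of mouse embryonic fibroblasts during reprogramming. They were chosen by name: Ccl or Cxcl followed by digits, Cx3cl1, or Il followed by digits with at most 1 final letter, receptors and Il33 left out, if the gene reached 0.5 TPM (transcripts scaled to a fixed total, a level corrected for gene length) in any library. Of 65 such ligand symbols among 24130 genes, 39 passed. The members nearest the minimum were Il25, at 0.57 TPM in its highest library, and Ccl17, at 0.61 TPM, and the nearest genes outside it were Ccl1, at 0.47 TPM, and Il2, at 0.45 TPM. The set is uneven: 16 members reached 10 TPM in at least 1 library, 11 stayed under 2 TPM in every library, and 10 were at 0.5 TPM or more in all 20 libraries.

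RNA was sequenced from cultures of OG2 embryonic fibroblasts, which carry a transgene with green fluorescent protein under Oct4 regulatory sequence, at passage P2 and of a mixed 129SVJ, C57B6 and CBA background. The arms, each sampled after 2 days of transfection, were OvSvK, with VP16-fused Oct4 and Sox2 plus Klf4, on days 0 to 4, and OSK, with unfused Oct4, Sox2 and Klf4, from which GSK3 inhibitors (CHIR-99021 and LiCl), bFGF or vitamin C were left out in samples of days 3 and 7. Complete OSK was sampled on days 0, 1, 3, 5 and 7. The GFP arm, set against the factors as the control, was transfected with green fluorescent protein, apart from the reporter that these cells carry, and was sampled on days 1, 3, 5 and 7. The stem cells (mESC), labelled as OG2 embryonic stem cells, and the fibroblasts (MEF), both embryonic and murine, are 1 sample each. The titles of both mark them as re-analysis. VP16 is a viral domain that activates transcription. Each arm and day is 1 library (n = 1), so a p-value below measures how a difference varied from day to day, or how values departed from a line over days, and not the spread between replicates. In bulk RNA, fewer cells of a type and less RNA per cell cannot be told apart.

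Chemokines are small secreted proteins that attract cells along a concentration gradient and act through G protein-coupled receptors. CC and CXC chemokines are named for the spacing of their first cysteines, and the genes lie in clusters of recent duplicates. In fibroblasts, Ccl2, Ccl7 and the CXC chemokines with an ELR (Glu-Leu-Arg) motif are known as targets of NF-kappaB after injury or interleukin 1, Cxcl9, Cxcl10 and Cxcl11 as targets of interferon, and Cxcl12 as a constitutive product that retains blood progenitors in the bone marrow. Interleukins are a mixed group: Il6 and Il11 signal through gp130, the receptor chain also used by Lif, while Il34 and Csf1 are the ligands of the macrophage receptor Csf1r.

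Libraries held 8807743 to 17783282 counts in OvSvK, 9226523 to 20720718 in OSK, 7872277 to 18732098 in the omissions and 8568740 to 12623507 in GFP. A count of 3, taken as the floor for a gene at 0, was 0.147 to 0.399 CPM (expected counts scaled by library total and TMM factor). Intervals and floors cover counting error only. The libraries fell into sets by the share of Rpsa counts assigned to its pseudogene Rpsa-ps10: 3.32% to 7.78% in OSK days 1 to 7 and GFP (8 libraries) and 0.124% to 0.476% in the other 12. OSK against GFP is therefore a comparison inside 1 set, whereas in OvSvK against OSK days 1 to 7 or GFP, in omissions against OSK and between OSK day 0 and later OSK days, arm or day and library set cannot be told apart. OSK day 0 stood furthest apart (TMM factor 0.674, against 0.853 or more in the others). All 13 fibroblast markers listed were detected in every library, with 6654 to 31950 summed CPM in OvSvK, 5388 to 50500 in OSK and 29230 to 39590 in GFP. In OSK and OvSvK the sum, which weighs the most abundant markers most, was lower on each later day. Not every marker fell: Lum and Dcn were higher on the last day than on day 0 in both arms, and the other markers listed were lower.

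Ccl2, Ccl7 and Ccl8 made up most of the chemokine and interleukin mRNA. Their share of the summed TPM of the 39 genes was 65.6% to 81.2% in the omission libraries, 40.0% to 77.8% in OvSvK, 37.9% to 78.4% in OSK and 42.7% to 83.4% in GFP, lowest on the earliest day of each course. In TPM, the arm medians of OvSvK ran Ccl7 (226), Ccl2 (173), Il34 (123), Ccl8 (46.6) and Cxcl14 (21.3). In OSK the order was Ccl8 (162), Ccl7 (138), Ccl2 (75.8), Il34 (57.6) and Cxcl12 (20.7). In GFP it was Ccl8 (377), Cxcl12 (184), Ccl2 (152), Ccl7 (150) and Ccl12 (23.3). Without GSK3 inhibitors, bFGF or vitamin C, Ccl8 led the order with 730, 413 and 144 TPM. These orders are descriptive, since most neighbours overlap in their ranges over days: in OvSvK the TPM of Ccl2 ran from 63.2 to 305 and that of Ccl7 reached 308. The summed TPM of the 39 genes was 1631 and 1327 on days 3 and 7 without GSK3 inhibitors, 1066 and 852 without bFGF and 681.5 and 451 without vitamin C. It was 458, 645, 721, 1009 and 932 on OvSvK days 0 to 4, 334, 342, 640, 769 and 540 on OSK days 0, 1, 3, 5 and 7, and 296, 661, 1294 and 2771 on GFP days 1, 3, 5 and 7.

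**Figure D1:**
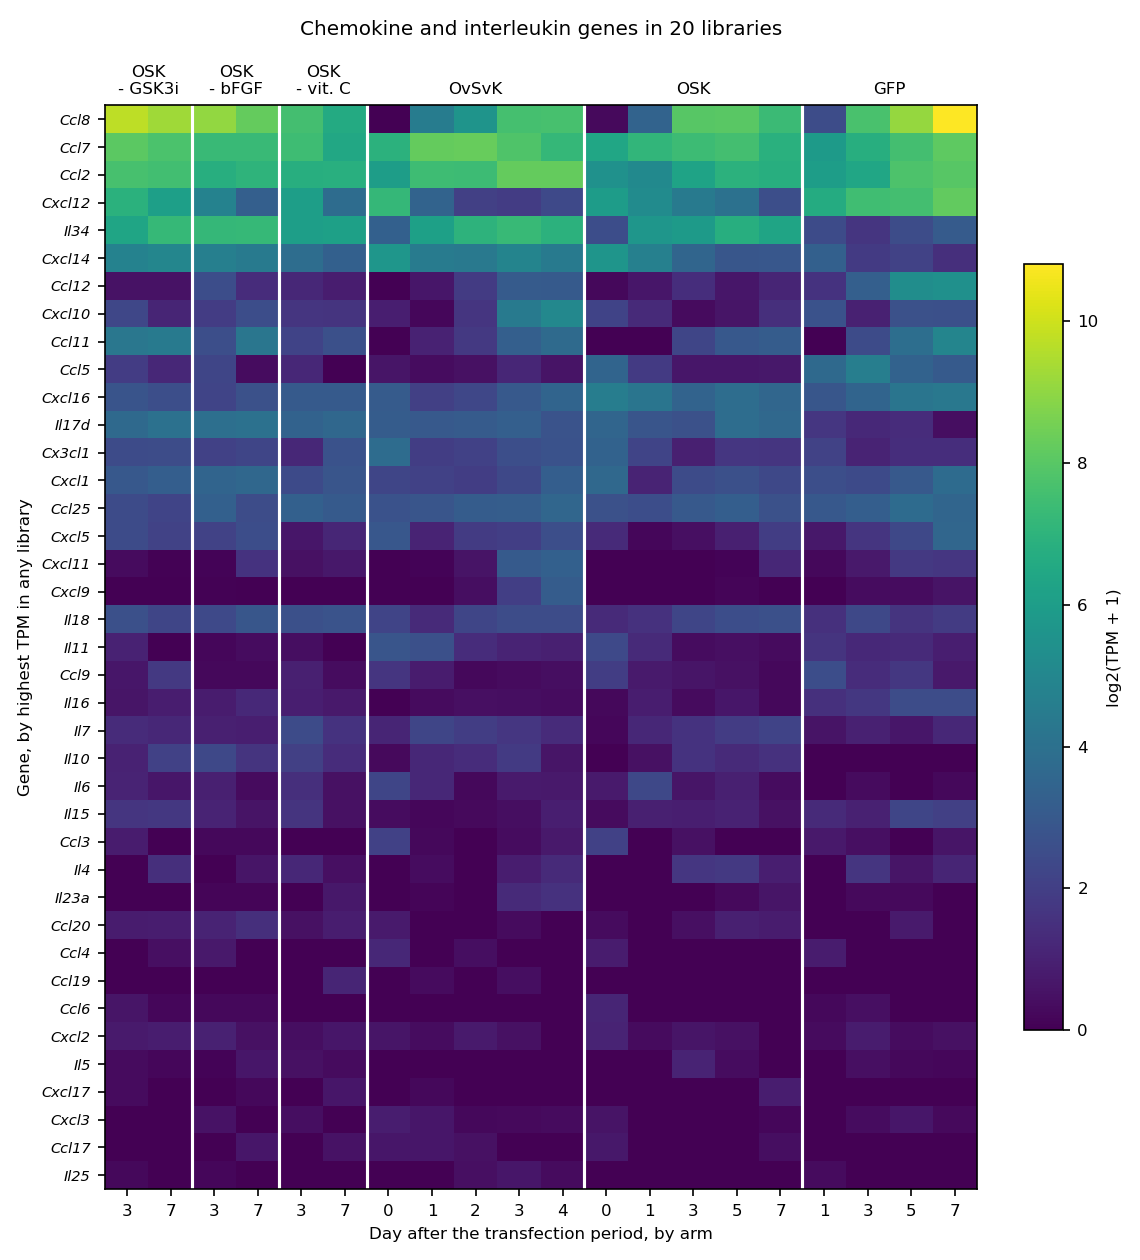
Levels of the 39 chemokine and interleukin genes as log2(TPM + 1), 1 row per gene ordered by its highest TPM and 1 column per library, grouped by arm and labelled by day. The brightest cell is Ccl8 on GFP day 7 (1782 TPM), Cxcl12 is bright in GFP and dark in late OvSvK, Il34 shows the opposite, and most rows in the lower part stay near 0.

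OSK cultures had less Ccl2, Ccl5, Cxcl5, Cxcl12 and Il16 than GFP cultures on the same days, and more Il34, Il17d, Cxcl14 and Il7. Of the 39 members, 16 passed the filter on low counts in this comparison. At an adjusted p under 0.05, 4 were higher and 5 lower in OSK, beside 30.7% of the 12680 genes tested (16.8% higher and 14% lower). The median log2 difference of the 16 was -0.86, against 0.05 for all genes. Among 6 CC chemokines tested 0 were higher and 2 lower, among 4 lymphoid and other interleukins 3 were higher and 1 lower. The test was edgeR's quasi-likelihood F test with day as a block over days 1, 3, 5 and 7.

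**Figure D2:**
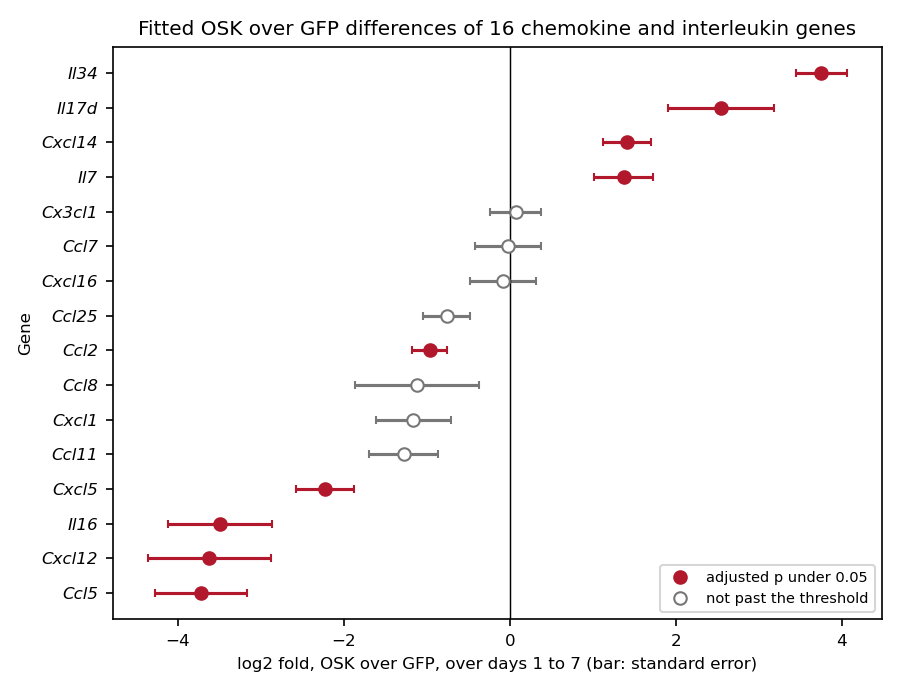
Fitted log2 fold of OSK over GFP (x axis) for the 16 genes that passed the filter on low counts, with standard errors as bars; filled points are past the adjusted p of 0.05. Il34 lies at 3.75, and Ccl5, Cxcl12 and Il16 lie between -3.72 and -3.49.

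The monocyte chemoattractant family genes Ccl2, Ccl7, Ccl12 and Ccl8 lie with the eosinophil attractant Ccl11 in 1 cluster of 81229 bases on chr11:82035571-82116799 (mm10). Ccl2, the main attractant of Ccr2-bearing monocytes, was at 24.75, 57.85, 51.35, 84.15 and 82.98 CPM on OvSvK days 0 to 4. It was at 25.35, 11.6, 22.4, 38.4 and 34.7 CPM on OSK days 0, 1, 3, 5 and 7 and at 25.4, 28.4, 77.0 and 88.0 CPM on GFP days 1, 3, 5 and 7. OSK was below GFP on 4 of 4 shared days although the ranges of the arms overlap. The fitted log2 difference was -0.96 ± 0.21 (SE, adjusted p = 0.0222), a 1.95-fold lower level, and the call was lost without day 5 (0.127) or day 7 (0.0587). In OvSvK, Ccl2 exceeded OSK by 4.99-fold on day 1 (95% interval 4.07 to 6.17) and by 3.76-fold on day 3 (3.25 to 4.37). Over days 0, 1 and 3, with nearly equal levels on day 0, the difference of 1.44 ± 0.53 did not pass (adjusted p = 0.164; DESeq2 gave 0.0204).

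Ccl7, a ligand of Ccr2 and Ccr3, was at 46.2, 98.15, 89.6, 61.1 and 39.1 CPM in OvSvK, 48.3, 47.2, 48.85, 58.0 and 36.3 CPM in OSK and 23.1, 36.7, 65.2 and 93.0 CPM in GFP. GFP ended highest and began lowest, and OSK stayed between 36.3 and 58.0 CPM. The OSK over GFP difference was -0.02 ± 0.40 in log2 (adjusted p = 0.97), which leaves room for a change of either sign, since OSK was 2.04-fold above GFP on day 1 and at 0.39 of it on day 7.

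Ccl8, a ligand of Ccr8 in the mouse, spanned the widest range of all members. In OvSvK it was at 0, 4.26, 8.16, 31.55 and 33.05 CPM, in OSK at 0.0716, 2.03, 44.7, 48.4 and 31.5 CPM and in GFP at 1.13, 42.2, 115 and 369 CPM. It began at or near 0 in every arm and was highest on day 7 in GFP. The ratio of OSK to GFP was 1.79 on day 1 (95% interval 0.765 to 4.53), 1.06 on day 3 (0.917 to 1.22), 0.423 on day 5 and 0.0853 on day 7. The arms thus crossed, and the fitted difference over the days, -1.12 ± 0.75, did not pass (adjusted p = 0.293). The slopes were 1.48 ± 0.55 log2 units per day in OvSvK (adjusted p = 0.112), 0.85 ± 0.38 in OSK (0.0889) and 1.15 ± 0.38 in GFP (0.0941).

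Ccl11, or eotaxin, followed Ccl8 at a lower level. It was at 0, 0.4605, 1.01, 3.20 and 4.45 CPM in OvSvK, 0, 0, 1.46, 2.89 and 3.44 CPM in OSK and 0, 2.12, 6.51 and 13.75 CPM in GFP, at 0 in the earliest library of each of these arms and higher on each later day of OvSvK and GFP. The slope was called in OSK, at 0.83 ± 0.24 log2 units per day (adjusted p = 0.0162, and 0.106 without OSK day 0). It did not pass in OvSvK (1.35 ± 0.40, 0.0536) or GFP (0.97 ± 0.28, 0.0619). Across 20 libraries, Ccl8 and Ccl11 had the highest correlation among 120 pairs of 16 members in log2 CPM (r = 0.92). The libraries share arms and courses, so this is a description only.

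Ccl12, also a Ccr2 ligand, was at 0, 0.115, 0.5055, 1.32 and 1.24 CPM in OvSvK, 0.0716, 0.113, 0.314, 0.111 and 0.242 CPM in OSK and 0.5025, 1.89, 8.35 and 9.20 CPM in GFP. OSK never passed 4 counts, while GFP reached 68 counts on day 5 and 105 on day 7. GFP was 75.2-fold above OSK on day 5 and 38-fold above on day 7, both from OSK counts of 4 or fewer, with OSK over GFP ratios of 0.0133 (95% interval 0.00158 to 0.0499) and 0.0263 (0.00703 to 0.0693). Ccl12 was the member called in GFP over time, with a slope of 0.72 ± 0.17 log2 units per day (adjusted p = 0.0442). In all, 1 of 22 members was called there, beside 4.8% of genes (2.07% higher and 2.73% lower). The call was lost without OvSvK day 1, 2 or 3, OSK day 1 or 5, or any GFP day, at adjusted p between 0.0554 and 1.0. In OvSvK it rose by 1.21 ± 0.30 per day (adjusted p = 0.0281), a call lost without OvSvK day 0 (0.208), 1 (0.0941) or 3 (0.0669). Without OSK day 0, 6 members were called in GFP, the additional ones being Ccl2 (0.35 ± 0.08, adjusted p = 0.0208), Ccl7 (0.35 ± 0.09, 0.0264), Ccl8 (1.13 ± 0.31, 0.0314), Ccl11 (0.94 ± 0.24, 0.0266) and Cxcl5 (0.63 ± 0.17, 0.0327). The share of all genes called in that fit is not given here, so the increase cannot be read as particular to the members.

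**Figure D3:**
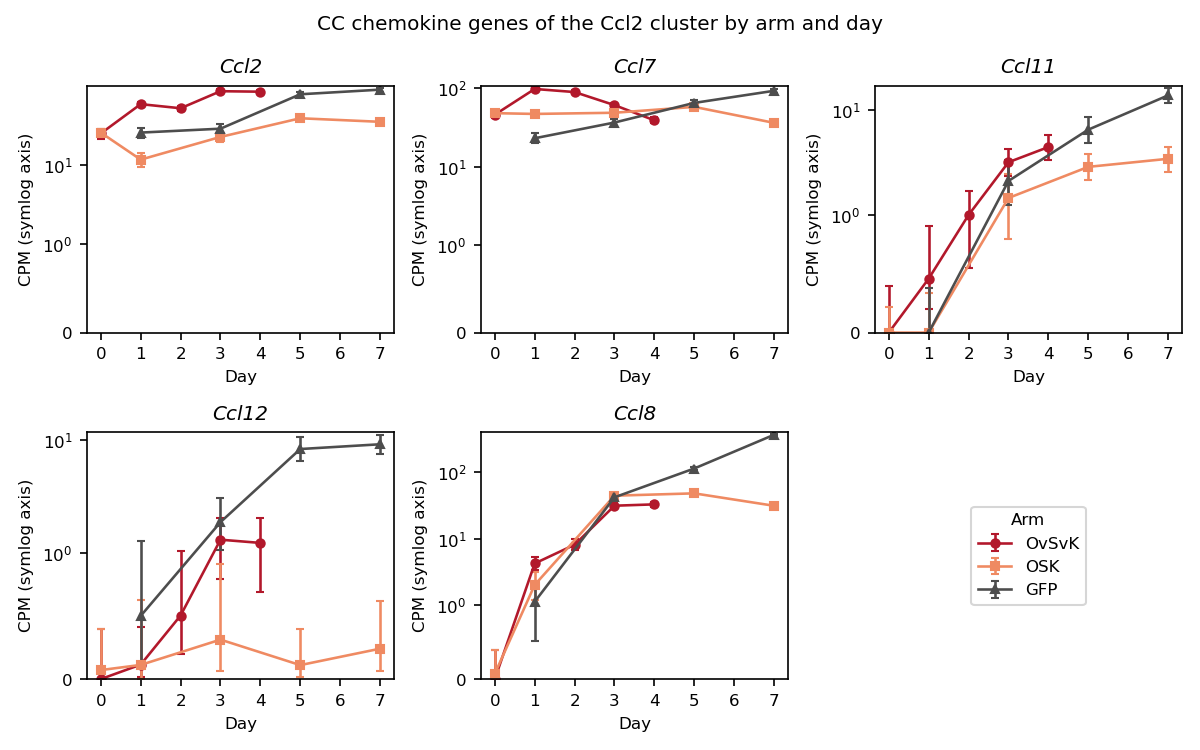
CPM (symmetric log axis, linear below 1) by day of the 5 CC chemokine genes of the cluster in OvSvK, OSK and GFP; each point is 1 library and bars are 95% Poisson intervals of the count. Ccl8 and Ccl11 start at or near 0 in each arm, Ccl12 is near 9 CPM on late GFP days against at most 0.314 in OSK, and Ccl7 stays between 23.1 and 98.2 CPM.

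The promoters of Ccl12 and Ccl8 are shown because these neighbouring genes began low and were highest late in GFP. Each run is the 250 bases before the RefSeq start on GRCm38.p6, 5′ to 3′ on the gene's strand, with any match to the motifs searched in capitals. The windows are chr11:82101595-82101844 and chr11:82114935-82115184, both on the plus strand.
Ccl12: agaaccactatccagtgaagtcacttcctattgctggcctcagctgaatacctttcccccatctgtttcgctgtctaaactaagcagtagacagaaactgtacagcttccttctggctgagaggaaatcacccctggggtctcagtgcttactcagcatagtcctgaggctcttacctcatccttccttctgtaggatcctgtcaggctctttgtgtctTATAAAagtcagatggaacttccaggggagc
Ccl8: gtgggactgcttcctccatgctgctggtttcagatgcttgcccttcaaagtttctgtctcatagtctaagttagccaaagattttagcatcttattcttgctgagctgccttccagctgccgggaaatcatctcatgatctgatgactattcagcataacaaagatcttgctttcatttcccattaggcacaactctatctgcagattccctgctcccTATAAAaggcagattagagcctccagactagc
The capitals mark TATAAA, 31 and 32 bases before the start. These were searched on both strands: TATAAA, in 12.4% of 32851 RefSeq promoters; a kappaB form, GGG and TTTCC with any 2 bases between them, in 1.41%; an interferon-stimulated response element (ISRE) form, GAAA and GAAA with any 2 bases between them, in 2.98%; and TGANTCA, an AP-1 form, in 6.75%. Of the 39 members, 24 had a RefSeq promoter, and 8, 7, 4 and 5 of these held the motifs in that order.

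The other CC chemokines were low. Ccl5, or RANTES, which attracts T cells and monocytes, was at 0.133, 0.0576, 0.0722, 0.2085 and 0.0824 CPM in OvSvK, 3.72, 0.563, 0.105, 0.111 and 0.121 CPM in OSK and 3.015, 5.07, 2.09 and 1.58 CPM in GFP. On shared days all GFP values lay above all OSK values, and OSK day 0 was as high as GFP. OSK was lower than GFP by 3.72 ± 0.56 on the log2 scale (adjusted p = 0.00765, 13.1-fold; 0.0543 without day 5), and Ccl5 fell in OSK over time by 0.79 ± 0.16 per day (adjusted p = 0.0034; 0.179 without OSK day 0). Ccl9, of the same second cluster at chr11:83525778-83664683, was at 1.198, 0.576, 0.217, 0.278 and 0.330 CPM in OvSvK, 3.795, 0.563, 0.628, 0.333 and 0.242 CPM in OSK and 2.01, 2.12, 0.737 and 0.876 CPM in GFP. It fell in OSK by 0.54 ± 0.13 per day (adjusted p = 0.00659), a call kept in all 12 fits without 1 library that tested it. The fit without OSK day 0, its highest library, did not test Ccl9, so how far the fall rests on that library is not known.

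Ccl3, Ccl4 and Ccl6, which are best known as products of macrophages and other leukocytes, were seen mainly at the start. Ccl3 had 9 counts on OvSvK day 0, 25 on OSK day 0 and at most 3 in any other library. Ccl6 had 14 counts on OSK day 0 and at most 2 elsewhere, and Ccl4 had at most 5. In 8 of the 15 macrophage markers found, OvSvK day 0, OSK day 0 and GFP day 1 were the 3 highest libraries. Of these, Lyz2 was at 31.3 CPM on OvSvK day 0, 120 on OSK day 0 and 47.7 on GFP day 1, against at most 17.8 in every other library, and Csf1r was at 5.59, 19.6 and 3.27 CPM in those libraries and at most 1.80 elsewhere; the others were Emr1, Tyrobp, Fcer1g, C1qa, C1qb and C1qc. The remaining 7 did not have those libraries as their 3 highest, and Cd68 was highest on OSK day 3 (22.4 CPM, against 3.73 on OvSvK day 0). Of the 15, 15, 15 and 14 were detected in those libraries, and the summed level of the list was 98.2 to 142 CPM in OvSvK, 92.5 to 346 in OSK and 87.0 to 155 in GFP. Of 6 tested between OSK and GFP, 1 was higher, Laptm5 (4.20 ± 0.74, adjusted p = 0.0122), and 2 were lower, Lyz2 (-3.00 ± 0.36, 0.00428) and Cd14 (-2.72 ± 0.31, 0.00376). The part of macrophages in the levels of Ccl3, Ccl4, Ccl5, Ccl6 and Ccl9 was not tested. Ccl25, a thymic and gut chemokine, lay between 1.08 and 4.03 CPM in all libraries, and the gene overlaps Elavl1 on the opposite strand. Ccl17, Ccl19 and Ccl20 never exceeded 10 counts.

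In OvSvK, the chemokines known as interferon targets were low until day 2 and high on days 3 and 4. Cxcl9, Cxcl10 and Cxcl11 all bind Cxcr3, the receptor of activated T cells, and lie within 44139 bases at chr5:92321347-92365485. Cxcl10 was at 0.133, 0.0576, 0.794, 7.64 and 11.95 CPM in OvSvK, 2.79, 0.676, 0.105, 0.222 and 0.7855 CPM in OSK and 3.015, 0.472, 2.58 and 2.45 CPM in GFP. OvSvK days 3 and 4 were above every other library. On day 3 the ratio of OvSvK to OSK was 73.1, from 110 counts against 1 (95% interval 12.8 to 2910), and that of OvSvK to GFP was 16.2 (6.15 to 60.5).

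Cxcl9 had 0, 0, 5, 46 and 98 counts on OvSvK days 0 to 4, at most 2 in OSK and at most 7 in GFP. On day 3 it was at least 10.2-fold higher in OvSvK than in OSK, which had 0 counts, taking the floor of 3 counts in that library, and 9.04-fold higher than in GFP (2.90 to 45.4). Cxcl11 was at 0, 0.0576, 0.289, 4.38 and 5.27 CPM in OvSvK, 0, 0, 0, 0.0555 and 0.846 CPM in OSK and 0.126, 0.472, 1.72 and 1.58 CPM in GFP. Its day 3 level was at least 14-fold higher in OvSvK than in OSK, on the same floor, and 9.28-fold higher than in GFP (3.45 to 35.1). OvSvK days 3 and 4 lay above all other libraries for each of the 3 genes. The annotation types Cxcl11 as a polymorphic pseudogene, and both Cxcl10 and Cxcl11 overlap Art3 on the opposite strand; whether counting used strand is not given in the sources used here.

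Over OvSvK days 0 to 4, 3 of the 22 members tested rose and 2 fell, beside 10.3% of 13848 genes (4.49% higher and 5.81% lower). Those that rose were Cxcl11, by 2.25 ± 0.33 log2 units per day (adjusted p = 0.00297), Cxcl10, by 2.15 ± 0.47 (0.0156), and Ccl12. The Cxcl11 call was kept in all 13 fits without 1 library that tested it, whereas that of Cxcl10 was lost without OvSvK day 0 (0.104), 1 (0.0573) or 4 (0.0579). Cxcl9 did not pass the filter on low counts. With no filter its slope was 2.56 ± 0.40 (adjusted p = 0.00276). The excess of the OvSvK over the GFP slope was called for 2 members upward and 1 downward of 22, beside 7.29% of genes (3.39% higher and 3.91% lower). It was 2.14 ± 0.53 for Cxcl10 (adjusted p = 0.0336) and 1.69 ± 0.43 for Cxcl11 (0.0384). For Cxcl10 the call was lost without any single OvSvK day or GFP day 1, 5 or 7 (0.0564 to 0.35), and for Cxcl11 without OvSvK day 0, 1 or 2, OSK day 1, 5 or 7, or GFP day 1, 3 or 7 (0.0501 to 0.369).

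In OSK, Cxcl11 rose by 1.38 ± 0.28 per day (adjusted p = 0.00347), a call that rested on day 7 (0.311 without it). Cxcl10 in OSK did not pass, at -0.28 ± 0.18 per day (adjusted p = 0.208), and OSK day 0 was its highest OSK library. Over OvSvK days, 4.49% of all genes were called higher and 5.81% lower. Of 21 other interferon regulators and targets in a list, 12 rose and 0 fell (median slope 1.41 against 0.001 for all genes). Examples were the transcription factor Irf1 (1.11 ± 0.18, adjusted p = 0.00491), the antiviral enzyme Oas1a (1.41 ± 0.26, 0.00833) and the GTPase Iigp1 (3.28 ± 0.64, 0.0102). In OSK 12 rose and 1 fell (median 0.59), beside 21.5% of all genes higher and 24.0% lower. In GFP 1 rose and 0 fell, beside 2.07% of all genes higher and 2.73% lower. The OvSvK minus GFP slope was called for Irf1 (1.08 ± 0.21, 0.0135) and Oas1a (1.29 ± 0.31, 0.0305) and for no other gene of that list.

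**Figure D4:**
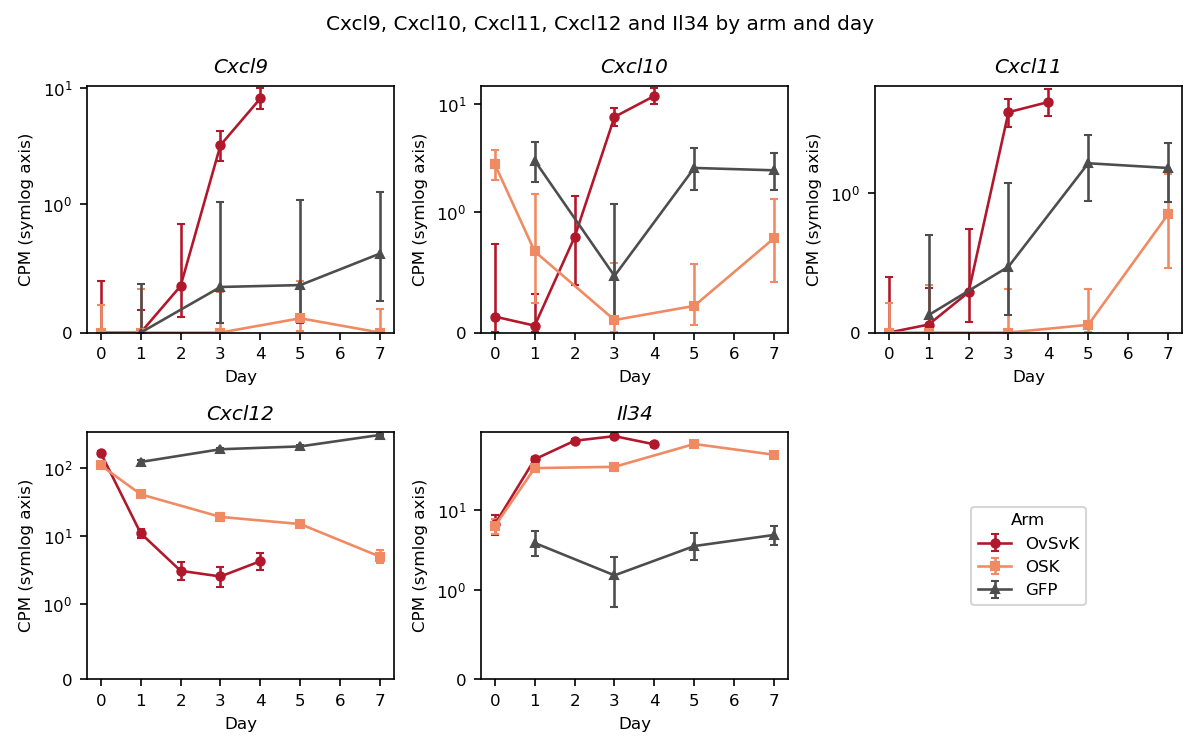
CPM (symmetric log axis, linear below 1) by day of Cxcl9, Cxcl10, Cxcl11, Cxcl12 and Il34 in OvSvK, OSK and GFP; each point is 1 library and bars are 95% Poisson intervals. Cxcl9, Cxcl10 and Cxcl11 in OvSvK are above the other arms on days 3 and 4, Cxcl12 falls to 2.50 CPM on OvSvK day 3 while GFP stays above 121, and Il34 in OvSvK and OSK parts from GFP by day 1.

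The promoters of Cxcl9 and Cxcl10 are shown because both genes came up together in OvSvK. They are chr5:92328080-92328329 and chr5:92348890-92349139, both on the minus strand of GRCm38.p6 and printed 5′ to 3′ on that strand.
Cxcl9: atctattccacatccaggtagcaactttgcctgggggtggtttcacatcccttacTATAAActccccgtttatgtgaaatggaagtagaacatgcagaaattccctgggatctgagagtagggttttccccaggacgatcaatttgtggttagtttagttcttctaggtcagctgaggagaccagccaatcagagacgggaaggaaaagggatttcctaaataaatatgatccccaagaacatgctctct
Cxcl10: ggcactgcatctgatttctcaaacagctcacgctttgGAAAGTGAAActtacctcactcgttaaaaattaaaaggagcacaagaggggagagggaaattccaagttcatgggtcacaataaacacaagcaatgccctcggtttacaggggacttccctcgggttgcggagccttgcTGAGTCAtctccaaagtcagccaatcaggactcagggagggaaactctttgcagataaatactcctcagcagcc
The capitals mark TATAAA 195 bases before the start of Cxcl9, and in Cxcl10 the ISRE form 213 bases and the AP-1 form TGANTCA 74 bases before the start. None of the 4 motifs other than TATAAA is in the Cxcl9 window, and these letters say nothing of which factor acts there.

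Cxcl12, the constitutive ligand of Cxcr4 and Cxcr7, was lower from day 1 on with either set of factors than with GFP. It was at 163.5, 10.8, 3.03, 2.50 and 4.20 CPM in OvSvK, 108, 40.4, 18.8, 14.8 and 4.895 CPM in OSK and 121, 186, 205 and 303 CPM in GFP. From day 1 on all GFP values lay above all OvSvK and OSK values, and the OSK values were lower on each later day. GFP exceeded OSK by 3.00-, 9.90-, 13.9- and 61.8-fold on days 1, 3, 5 and 7, and exceeded OvSvK by 11.2-fold on day 1 and 74.5-fold on day 3. In the fit, OSK was lower than GFP by 3.62 ± 0.74 on the log2 scale (adjusted p = 0.0192, 12.3-fold), and the call was lost without day 3 (0.0797) or day 5 (0.0949).

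Over time Cxcl12 fell by 1.36 ± 0.26 log2 units per day in OvSvK (adjusted p = 0.00914). Without OvSvK day 0 the slope was -0.46 and the call was lost (0.412): most of the fall took place between day 0 and day 2. In OSK it fell by 0.58 ± 0.16 per day (adjusted p = 0.0143; 0.133 without OSK day 0 and 0.0668 without OSK day 7), and in GFP the slope was 0.21 ± 0.20 (0.542). The OvSvK minus GFP slope was -1.56 ± 0.32 (adjusted p = 0.0152; lost without OvSvK day 0, GFP day 1 or GFP day 7, at 0.209, 0.138 and 0.0907), and OSK minus GFP was -0.78 ± 0.25 (0.0944). OvSvK against OSK on days 0, 1 and 3 gave -1.39 ± 0.67 (0.267): OvSvK was 1.51-fold above OSK on day 0, and OSK was 3.74-fold above OvSvK on day 1 and 7.53-fold above on day 3. Of its receptors, Cxcr4 was higher in OSK than in GFP by 5.40 ± 0.78 (adjusted p = 0.00707) and Cxcr7 by 1.89 ± 0.16 (0.00186). The Cxcl12 window, chr6:117168285-117168534 on the plus strand, is shown as a promoter with no match to the 4 motifs.
Cxcl12: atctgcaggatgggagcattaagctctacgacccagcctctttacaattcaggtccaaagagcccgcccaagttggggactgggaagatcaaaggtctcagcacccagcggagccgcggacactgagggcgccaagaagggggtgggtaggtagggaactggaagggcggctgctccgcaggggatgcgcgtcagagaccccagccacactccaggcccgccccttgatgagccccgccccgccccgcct

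Cxcl14, a chemokine of epithelia and fibroblasts, was at 45.1, 16.3, 13.8, 18.5 and 13.35 CPM in OvSvK, 66.2, 20.04, 7.11, 4.665 and 4.895 CPM in OSK and 8.17, 2.005, 2.70 and 1.40 CPM in GFP. The day 0 libraries were highest and the ranges of OSK and GFP over days 1 to 7 overlap, but OSK was above GFP on 4 of 4 days. The difference was 1.41 ± 0.29 in log2 (adjusted p = 0.0191, 2.66-fold; 0.103 without day 3 and 0.0625 without day 5). In OSK it fell by 0.53 ± 0.11 per day (adjusted p = 0.00313), a call kept in all 14 fits without 1 library. Cx3cl1, or fractalkine, a membrane-anchored chemokine, was at 21.6, 4.03, 4.19, 5.98 and 6.51 CPM in OvSvK, 24.2, 5.405, 1.15, 3.00 and 3.02 CPM in OSK and 5.78, 1.65, 2.46 and 2.10 CPM in GFP. Its values were high on both day 0 libraries only, and the fall in OSK of 0.40 ± 0.15 per day (adjusted p = 0.045) was lost without OSK day 0 (0.695). Without OvSvK day 2, 3 or 4, OSK day 5 or any GFP day it was at 0.0504 to 0.101. Cxcl16, another membrane-anchored chemokine, was at 7.585, 2.82, 3.25, 4.86 and 6.51 CPM in OvSvK, 29.2, 13.6, 7.635, 10.6 and 7.61 CPM in OSK and 5.40, 8.37, 14.5 and 14.5 CPM in GFP. Its fall in OSK of 0.24 ± 0.09 per day (adjusted p = 0.0451) also rested on day 0 (0.477 without it), and it was at 0.0552 to 0.0918 without OvSvK day 3, OSK day 5 or 7 or any GFP day. Cxcl16 overlaps Zmynd15 on the opposite strand. In OvSvK it was below OSK on each of days 0, 1 and 3, by 1.62 ± 0.46 in log2, which did not pass in edgeR (adjusted p = 0.103) and passed in DESeq2 (0.0113).

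Between OvSvK and OSK over days 0, 1 and 3, edgeR called 0 of 15 members and 0.0% of 12910 genes, although 2991 genes had an unadjusted p under 0.05. DESeq2 called 1334 genes higher and 453 lower, and 1 member in each direction, Ccl2 and Cxcl16. The median log2 difference of the 15 members was 0.22 against -0.02 for all genes.

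In OSK over time, 3 of 22 members rose and 7 fell, beside 45.5% of genes (21.5% higher and 24.0% lower). The risers were Cxcl11, Ccl11 and Il7, and those that fell were Ccl5, Ccl9, Il11, Cxcl12, Cxcl14, Cx3cl1 and Cxcl16. Without OSK day 0, which stands apart and belongs to the other library set, 3 were called: Cxcl11 (1.61 ± 0.41 per day, adjusted p = 0.0217), Cxcl5 (0.72 ± 0.22, 0.0436) and Cxcl14 (-0.35 ± 0.11, 0.0427). The share of all genes called in that fit is not given here. The OSK minus GFP slope was called for 0 of 22 members, beside 6.22% of genes (2.85% higher and 3.38% lower), with 2988 genes at an unadjusted p under 0.05. DESeq2 called 3 members, Ccl7 (-0.37 ± 0.12, adjusted p = 0.0198), Cxcl12 (-0.78 ± 0.25, 0.0192) and Cxcl16 (-0.49 ± 0.16, 0.0233).

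The CXC chemokines with an ELR motif attract neutrophils through Cxcr2. Cxcl5 was at 5.46, 0.748, 1.66, 1.74 and 2.88 CPM in OvSvK, 1.79, 0.113, 0.209, 0.611 and 1.99 CPM in OSK and 0.5025, 1.53, 2.95 and 7.88 CPM in GFP. OSK was below GFP on 4 of 4 days, both arms were higher on each later day from day 1, and their ranges overlap. The difference was -2.22 ± 0.35 in log2 (adjusted p = 0.00853, 4.67-fold lower; 0.0548 without day 3 and 0.0696 without day 5). OvSvK was above OSK on each of the 3 shared days, but the difference of 2.20 ± 0.60 did not pass (0.0948). Cxcl1, or KC, was at 1.73, 1.27, 1.01, 1.32 and 2.72 CPM in OvSvK, 8.16, 0.450, 1.57, 1.94 and 1.57 CPM in OSK and 2.39, 1.77, 2.95 and 5.255 CPM in GFP, with OSK day 0 as its highest library. OSK was below GFP by 1.16 ± 0.45 in log2, which did not pass (adjusted p = 0.102). Cxcl2 had at most 12 counts and Cxcl3 at most 5.

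Ccl2, Ccl7 and Cxcl5 had no promoter in the RefSeq set used and were not searched. Among the 24 members that had one, the promoter of Cxcl1 is shown, the most abundant with kappaB forms in its window. It is chr5:90890995-90891244, plus strand, and the capitals mark the kappaB form on either strand 89 and 71 bases before the start.
Cxcl1: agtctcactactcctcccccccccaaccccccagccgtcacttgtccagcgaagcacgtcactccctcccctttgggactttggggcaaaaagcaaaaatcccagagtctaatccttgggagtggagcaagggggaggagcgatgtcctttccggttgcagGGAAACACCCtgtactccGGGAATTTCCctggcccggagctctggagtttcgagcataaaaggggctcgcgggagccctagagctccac
The same form was found 97 and 78 bases before the start of Cxcl2 and 73 bases before that of Cxcl3, and 1.41% of all promoters hold it. In OSK against GFP, 30.7% of all genes were called in either direction. Of 22 NF-kappaB components and feedback genes, 4 were higher and 3 lower in OSK, a share close to that of all genes. Those called included Cebpb (-2.64 ± 0.21, adjusted p = 0.00145), Cebpd (3.54 ± 0.34, 0.00259) and the adhesion molecule Icam1 (-1.64 ± 0.35, 0.0207). Over OvSvK days 2 rose, Icam1 (0.73 ± 0.09 per day, 0.00113) and Bcl3 (0.92 ± 0.15, 0.0041), and 1 fell, Vcam1 (-0.71 ± 0.19, 0.0375), beside 4.49% of all genes higher and 5.81% lower.

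Among the interleukins, Il34 had the smallest adjusted p of OSK against GFP. This ligand of Csf1r was at 6.65, 43.2, 73.7, 84.2 and 66.5 CPM in OvSvK, 6.30, 33.6, 34.8, 67.2 and 49.3 CPM in OSK and 3.895, 1.53, 3.56 and 4.90 CPM in GFP. The day 0 libraries lay just above the GFP range, and from day 1 on every OvSvK and OSK value lay above every GFP value. OSK exceeded GFP by 8.62-, 22.7-, 18.9- and 10.1-fold on days 1, 3, 5 and 7, and OvSvK exceeded GFP by 11.1-fold on day 1 and 54.9-fold on day 3. The fitted OSK over GFP difference was 3.75 ± 0.31 in log2 (adjusted p = 0.00186, 13.5-fold) and was called without each of the 4 days in turn. The slopes over days did not pass, at 0.68 ± 0.30 per day in OvSvK (adjusted p = 0.185) and 0.30 ± 0.15 in OSK (0.117). Il34 overlaps the antisense genes Gm15894 and Gm15895. Csf1, the other ligand of the same receptor, was lower in OSK than in GFP by 1.17 ± 0.20 in log2 (adjusted p = 0.0111).

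Il16, whose product attracts Cd4-bearing cells, was at 0, 0.403, 0.650, 0.486 and 0.494 CPM in OvSvK, 0.6445, 1.24, 0.314, 0.7775 and 0.242 CPM in OSK and 3.895, 5.31, 8.10 and 9.63 CPM in GFP. All GFP values were above all others of these arms. OSK was lower than GFP by 3.49 ± 0.63 on the log2 scale (adjusted p = 0.0132, 11.2-fold; 0.0701 without day 3 and 0.0761 without day 5). Il17d, a distant member of the interleukin 17 family, was at 4.66, 3.57, 3.47, 3.61 and 2.39 CPM in OvSvK, 9.45, 3.27, 2.41, 6.39 and 5.68 CPM in OSK and 1.38, 0.7075, 0.8595 and 0.175 CPM in GFP. All OSK values were above all GFP values, by 2.55 ± 0.64 in log2 (adjusted p = 0.0334, 5.84-fold; 0.0987 without day 3 and 0.153 without day 5).

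Il7, a growth factor of lymphocyte precursors made by stromal cells, was at 1.46, 4.03, 2.82, 2.015 and 1.32 CPM in OvSvK, 0.286, 1.46, 1.88, 2.72 and 3.63 CPM in OSK and 0.628, 1.06, 0.614 and 1.40 CPM in GFP. On shared days all OSK values were above all GFP values, by 1.37 ± 0.36 in log2 (adjusted p = 0.0359, 2.59-fold). This call was lost without day 3 (0.106), 5 (0.185) or 7 (0.0864), with no filter (0.0567) and with the GC trend removed (0.0983). Its rise in OSK of 0.36 ± 0.12 per day (adjusted p = 0.0325) was lost without OSK day 0 (0.22), 5 (0.0606) or 7 (0.0648), and was at 0.871 with the GC trend removed.

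Il11, a gp130 cytokine that fibroblasts make in response to TGF-beta, was at 3.86, 2.475, 0.650, 0.486 and 0.412 CPM in OvSvK, 3.65, 0.788, 0.105, 0.167 and 0.121 CPM in OSK and 1.005, 0.7075, 0.737 and 0.5255 CPM in GFP. It was highest on the day 0 libraries and fell by 0.90 ± 0.22 log2 units per day in OvSvK (adjusted p = 0.0274; 0.103 without OvSvK day 4) and by 0.76 ± 0.14 in OSK (0.00212, called in all 7 fits without 1 library that tested it). The fit without OSK day 0 did not test Il11, so how far the OSK fall rests on that library is not known. Its receptor chain Il11ra1 was lower in OSK than in GFP by 2.13 ± 0.20 (adjusted p = 0.00244). Il6 had 15 counts on OvSvK day 0 and 17 on OSK day 1, its highest libraries, and at most 1 count in each GFP library.

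Il10, an anti-inflammatory interleukin, was read in 1, 12, 11, 17 and 3 counts on OvSvK days 0 to 4, 0, 2, 9, 13 and 17 in OSK, and 0 in each of 4 GFP libraries. OSK was at least 2.66-, 1.96- and 3.91-fold higher on days 3, 5 and 7, and OvSvK at least 1.83- and 3.34-fold higher on days 1 and 3, taking 3 counts per GFP library as the floor. It did not pass the filter, and with no filter the OSK against GFP test called it (adjusted p = 0.0455), as it did Ccl12 (0.00809), Ccl9 (0.0446) and Cxcl10 (0.0212), all 3 lower. Il18 lay between 1.43 and 6.48 TPM in all libraries, and Il15 reached 3.79 TPM in GFP. Il23a had 10 and 11 counts on OvSvK days 3 and 4 and at most 5 elsewhere. Il4, Il5, Il25 and Cxcl17 had at most 9 counts in any library.

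OSK cultures without GSK3 inhibitors had more Cxcl12, Ccl8, Cxcl14, Ccl2, Ccl11 and Ccl7 than complete OSK, and those without bFGF more Ccl8, Cxcl14, Il34 and Il16. Of 20 members tested, 6 were higher and 0 lower than in complete OSK on days 3 and 7, beside 23.3% of 14191 genes (9.97% higher and 13.3% lower), and the median of the 20 was 0.74 against 0.01. Without bFGF, 4 were higher and 0 lower, beside 12.5% of genes (4.71% higher and 7.77% lower; median 0.77). Without vitamin C, edgeR called 0 of 20, beside 0.296% of genes (0.0423% higher and 0.254% lower; median 0.13), with 1782 genes at an unadjusted p under 0.05. DESeq2 and the fit with no filter each called 1, Cxcl12. These contrasts share the OSK libraries, and each omission differs from OSK in library set.

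Cxcl12 was at 116 and 63.6 CPM on days 3 and 7 without GSK3 inhibitors, 28.0 and 8.09 CPM without bFGF, 63.45 and 12.3 CPM without vitamin C and 18.8 and 4.895 CPM in OSK. On both days it was highest without GSK3 inhibitors, then without vitamin C, then without bFGF and then in OSK, and each arm was lower on day 7 than on day 3. Without GSK3 inhibitors it was higher than in OSK by 3.22 ± 0.35 in log2 (adjusted p = 0.00157, 9.29-fold), a call kept in all 8 fits without 1 library. The difference without vitamin C, 1.57 ± 0.33, did not pass in edgeR (0.0963) and passed in DESeq2 (0.00287), and that without bFGF was 0.62 ± 0.33 (0.227).

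Ccl8 was at 153 and 101 CPM without GSK3 inhibitors, 104 and 52.2 CPM without bFGF, 32.5 and 15.7 CPM without vitamin C and 44.7 and 31.5 CPM in OSK. Values without GSK3 inhibitors or bFGF were all above OSK, and those without vitamin C were below it on both days. It was higher by 1.74 ± 0.22 without GSK3 inhibitors (adjusted p = 0.00181; 0.0599 without that arm's day 7) and by 0.96 ± 0.22 without bFGF (0.0204; 0.233 and 0.0917 without that arm's day 3 or day 7). Without vitamin C the difference of -0.73 ± 0.22 did not pass (0.211).

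Cxcl14 was at 18.8 and 20.1 CPM without GSK3 inhibitors, 19.0 and 14.3 CPM without bFGF, 9.38 and 5.81 CPM without vitamin C and 7.11 and 4.895 CPM in OSK. It was higher by 1.74 ± 0.29 without GSK3 inhibitors (adjusted p = 0.00383; 0.089 without that arm's day 7) and by 1.47 ± 0.29 without bFGF (0.0132; 0.176 and 0.0923 without that arm's day 3 or 7; 0.0626 with the GC trend removed). The values of both arms lay above both OSK values.

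Ccl2 was at 61.0 and 52.15 CPM without GSK3 inhibitors, 36.5 and 38.2 CPM without bFGF, 31.7 and 30.9 CPM without vitamin C and 22.4 and 34.7 CPM in OSK. Its rise without GSK3 inhibitors was 1.01 ± 0.23 (adjusted p = 0.0138; 0.0907 and 0.0867 without that arm's day 3 or 7). Ccl11 was at 7.61 and 7.78 CPM without GSK3 inhibitors, 2.30 and 7.16 CPM without bFGF, 1.41 and 1.91 CPM without vitamin C and 1.46 and 3.44 CPM in OSK. It was higher without GSK3 inhibitors by 1.77 ± 0.45 (adjusted p = 0.0192; 0.123 and 0.0743 without that arm's day 3 or 7). Ccl7 was at 80.6 and 58.9 CPM without GSK3 inhibitors, 51.5 and 45.5 CPM without bFGF, 49.7 and 23.7 CPM without vitamin C and 48.85 and 36.3 CPM in OSK. Its rise of 0.72 ± 0.23 without GSK3 inhibitors was close to the threshold (adjusted p = 0.0463), and was lost without either day of that arm, of OSK or of the arm without bFGF (0.056 to 0.351) and with RLE size factors (0.0515) or limma (0.055). For these 3 genes both values without GSK3 inhibitors were above both OSK values. Ccl12, the remaining gene of that cluster, had 1 count in each library without GSK3 inhibitors.

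Il34 was at 46.1 and 86.7 CPM without GSK3 inhibitors, 93.8 and 91.1 CPM without bFGF, 37.1 and 38.4 CPM without vitamin C and 34.8 and 49.3 CPM in OSK. Without bFGF it was above OSK on both days, by 1.15 ± 0.26 (adjusted p = 0.0204; 0.253 and 0.0833 without that arm's day 3 or 7). Il16 was at 0.665 and 1.23 CPM without GSK3 inhibitors, 1.51 and 2.30 CPM without bFGF, 0.352 and 0.922 CPM without vitamin C and 0.314 and 0.242 CPM in OSK. Its rise without bFGF was 2.81 ± 0.63 (adjusted p = 0.0205; 0.139 without OSK day 7, 0.198 and 0.118 without day 3 or 7 of the arm without bFGF). With the GC trend removed, Il34 (0.0867) and Il16 (0.0571) did not pass. Il10 had 7 and 20 counts without GSK3 inhibitors, 38 and 21 without bFGF, 13 and 10 without vitamin C and 9 and 17 in OSK on days 3 and 7, and was not called in any of these contrasts.

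**Figure D5:**
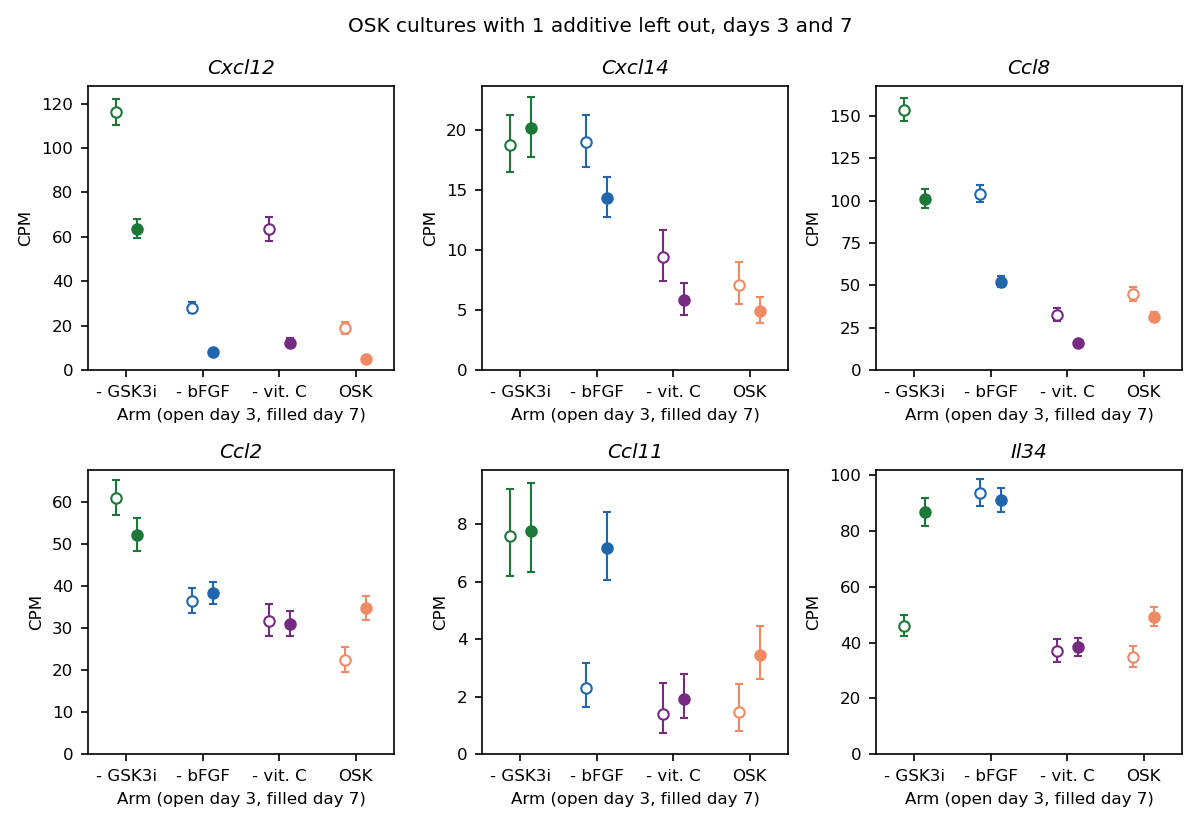
CPM on day 3 (open) and day 7 (filled) of 6 genes in OSK cultures without GSK3 inhibitors, without bFGF or without vitamin C and in complete OSK; each point is 1 library and bars are 95% Poisson intervals. Cxcl12 is highest without GSK3 inhibitors (116 and 63.6 CPM against 18.8 and 4.90 in OSK), and Il34 without bFGF is at 93.8 and 91.1 CPM.

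The omissions were also compared with each other, inside 1 library set, a comparison chosen after seeing the data. Without GSK3 inhibitors against without vitamin C, 6 of 20 members were higher and 0 lower, beside 14% of genes (4.66% higher and 9.29% lower). They were Ccl8 (2.47 ± 0.23, adjusted p = 0.00117), Ccl11 (2.30 ± 0.47, 0.00968), Cxcl12 (1.65 ± 0.32, 0.0091), Cxcl14 (1.42 ± 0.29, 0.00968), Ccl7 (0.99 ± 0.23, 0.0188) and Ccl2 (0.87 ± 0.23, 0.0321). Ccl8 kept its call in all 8 fits without 1 library. The others lost theirs without 1 or more of the libraries compared: Ccl11 without day 3 of the arm without GSK3 inhibitors (0.0673) or day 7 of the arm without vitamin C (0.0762), and Cxcl12 (0.127 and 0.0596) and Cxcl14 (0.183 and 0.119) without day 7 of either. Ccl7 lost it without day 3 or 7 of the arm without GSK3 inhibitors (0.0618 and 0.218) or day 7 of the arm without vitamin C (0.302), and Ccl2 without any single library of the 3 omissions (0.0663 to 0.235).

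Without GSK3 inhibitors against without bFGF, 1 was higher and 0 lower, beside 3.08% of genes (1.67% higher and 1.41% lower): Cxcl12, by 2.59 ± 0.33 (adjusted p = 0.00442). Its call was lost without day 3 (0.0858) or 7 (0.184) of the arm without bFGF or day 7 of the arm without GSK3 inhibitors (0.0593). Without bFGF against without vitamin C, 3 were higher and 0 lower, beside 7.03% of genes (2.02% higher and 5.01% lower). They were Ccl8 (1.69 ± 0.22, adjusted p = 0.0059), Il34 (1.29 ± 0.26, 0.018) and Cxcl14 (1.14 ± 0.29, 0.0402). Ccl8 lost its call without day 3 (0.125) or 7 (0.0915) of the arm without bFGF. Il34 lost it without any library of these arms (0.0511 to 0.289), and Cxcl14 without any library of these arms or day 7 of the arm without GSK3 inhibitors (0.0566 to 0.332).

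Fibroblast markers also differed between these arms. On days 3 and 7 their sum was highest without bFGF, while Cxcl12 was highest without GSK3 inhibitors. Of all genes, 9.97% were higher and 13.3% lower without GSK3 inhibitors than in OSK, and 4.71% and 7.77% without bFGF. Of 13 fibroblast markers, 6 were higher and 0 lower without GSK3 inhibitors than in OSK, and 7 and 0 without bFGF. The summed level was 13690 and 11800 CPM without GSK3 inhibitors, 23180 and 11830 without bFGF, 13110 and 7435 without vitamin C and 12500 and 5388 in OSK on days 3 and 7. Of 9 pluripotent cell markers tested, 0 were higher and 6 lower without GSK3 inhibitors, and 0 and 5 without bFGF. Macrophage markers summed to 179 and 207 CPM without GSK3 inhibitors, 122 and 74.4 without bFGF, 101 and 65.9 without vitamin C and 102 and 96.0 in OSK, of which Laptm5 alone made 120 and 160 CPM without GSK3 inhibitors. Of 7 macrophage markers tested, 2 were higher and 0 lower without GSK3 inhibitors than in OSK, Laptm5 (1.83 ± 0.31, adjusted p = 0.00479) and Lyz2 (1.59 ± 0.52, 0.0498). On days 3 and 7 without GSK3 inhibitors, Itgam was at 27.1 and 26.1 CPM, Cd68 at 20.7 and 11.7, Lyz2 at 5.91 and 3.31, Csf1r at 0.665 and 0.462 and Tyrobp at 0.0738 and 0.231. The part of cell composition in these results was not tested.

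Receptors and other cytokines were called in both directions. Of all genes, 30.7% were called in OSK against GFP and 23.3% without GSK3 inhibitors against OSK. Of 21 chemokine and cytokine receptors tested, 7 were higher and 5 lower in OSK than in GFP, including Il6ra (1.85 ± 0.31, adjusted p = 0.011). Without GSK3 inhibitors 3 were higher and 2 lower of 26, a share below that of all genes. Those called included Il4ra (1.27 ± 0.28, 0.0121) and the Lif receptor Lifr (-1.13 ± 0.20, 0.00442). Of 11 cytokine ligands outside the name rule, 2 were higher and 4 lower in OSK than in GFP: Lif was lower by 1.29 ± 0.18 (adjusted p = 0.00634), while the interleukin 1 antagonist Il1rn was higher by 2.15 ± 0.36 (0.0107) and Tnfsf11, or RANKL, by 3.04 ± 0.54 (0.0128). Without GSK3 inhibitors 4 were higher and 2 lower of 13, including Il1rn (2.27 ± 0.37, 0.00421), Tnfsf12 (1.89 ± 0.30, 0.00333) and Ptgs2 (-1.44 ± 0.21, 0.00264).

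The reference cells gave a view of the end points, through the series table of 12897 genes in whole-number scores normalized by the authors, with 1 sample each and no test. It lists 14 members, of which 12 were lower and 2 higher in mESC than in MEF, beside 48.0% of all genes lower. Of these, 9 were at 0.5 times the MEF score or less, beside 27.3% of all genes. Cxcl12 had a score of 20 in mESC and 5437 in MEF, Cxcl14 114 and 2091, Cx3cl1 3 and 710, Ccl2 20 and 320, Ccl7 22 and 256, and Cxcl5 9 and 122. Il34, at 114 in mESC and 51 in MEF, and Il16, at 5 and 2, were higher.

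The genes whose log2 CPM followed selected members most closely over the 20 libraries were found among 11235 genes with a mean of at least 5 CPM, as a description. For Cxcl12 they were St3gal1 (r = 0.943), Hist1h2bc (0.94) and BC029722 (0.923). For Cxcl10 they were Tvp23a (0.784), Igfbp4 (0.78) and the immunoproteasome subunit Psmb10 (0.766). For Cxcl1 they were Trex1 (0.879) and the NF-kappaB subunit Relb (0.841), for Cxcl5 Col23a1 (0.78), and for Ccl2 Foxred2 (0.746). Among the members themselves, Cx3cl1 and Cxcl14 had r = 0.80, Ccl2 and Ccl11 0.70, and Cxcl12 and Ccl5 0.69, while Il34 ran against Ccl5 (-0.82) and Cxcl12 (-0.78). The libraries share arms, days and library sets, and depth differs between them.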

How the data were processed

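RNA sequencing of 20 culture libraries of 6 arms, 1 library per arm and day, and of mESC and MEF was used. The mESC and MEF samples are titled as re-analysis. The submitters' processing notes name RSEM 1.2.4 and mm10 for the 20 libraries, and RSEM 1.1.21 and mm9 for the other two samples. Not given in the sources used here were aligner, strandedness and read length. The deposited library tables hold expected counts and TPM for 24130 genes, per the file headers. RSEM shares reads that match several genes, so the levels of recent duplicates such as the Ccl genes carry that uncertainty. The deposited table of the series holds whole numbers for 12897 genes with 1 shared median of 374. It was read as a score normalized by the authors and was used only for mESC and MEF.

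Symbols came from the series table for 12897 genes and from GENCODE M21 for 10788, and 445 had none. Expected counts were rounded and fitted in R 4.3.3 with edgeR 4.0.16: TMM factors, filterByExpr by arm, robust quasi-likelihood F tests and Benjamini-Hochberg adjustment over every gene tested (threshold 0.05). Day was the block in OSK against GFP, fitted on days 1, 3, 5 and 7 (12680 genes in 8 libraries, leaving 3 residual degrees of freedom), and in OvSvK against OSK, on days 0, 1 and 3 (12910 genes in 6 libraries, leaving 2). Slopes per arm were fitted together on 14 libraries (13848 genes, leaving 8), and the omissions from 1 model with OSK on days 3 and 7 (14191 genes in 8 libraries, leaving 3). Alternatives were RLE factors, no filter, removal of a GC trend in 20 bins (97.8% of genes had a GC value), DESeq2 1.42.0, limma 3.58.1 on log2(TPM + 1), and each library or day left out. Single-day ratios carry exact 95% intervals of counts. Tested on simulated data, the OSK against GFP fit recovered 98.5% of 200 genes changed by 2 log2 units among 13104 (5.3% of its calls were false), and the GFP slope fit 100% of 200 genes changed by 0.7 per day among 13989 (6.5% false). The changed genes were drawn only from those with a mean of at least 5 CPM, with 1 fixed dispersion for all genes. These rates therefore do not cover members at lower levels. Promoters are RefSeq sequences on GRCm38.p6, 250 bases before each start. Tables and plots used python 3.11.15, pandas 2.3.3 and matplotlib 3.10.9.

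The members, gene lists and tests were chosen with earlier results of these data known. All members may be named by rule, those called in a comparison with every value. Other genes are those of each list with the smallest adjusted p, and the macrophage markers named were picked after their values were seen. The labels do not say whether libraries of different days came from separate transfections or animals.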

Additional observations from a re-analysis of the deposited data

Results flagged for a closer look

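Cxcl10, Cxcl11 and Cxcl12 changed over days in OvSvK differently from GFP, by a test of the difference of the slopes in edgeR. The OvSvK minus GFP slope was 2.136 log2 units per day for Cxcl10 (adjusted p = 0.0336), 1.694 for Cxcl11 (0.0384) and -1.561 for Cxcl12 (0.0152). Cxcl10 stood at 7.64 and 11.95 CPM on OvSvK days 3 and 4, against at most 3.02 CPM in GFP. Cxcl11 stood at 4.38 and 5.27 CPM on those days, against at most 1.72 CPM in GFP. Cxcl12 was lower on OvSvK days 1 to 4 (2.50 to 10.8 CPM) than on day 0 (163.5 CPM), while GFP ran from 121 to 303 CPM. OvSvK was sampled on days 0 to 4 and GFP on days 1 to 7, and these arms belong to different library sets, so arm, sampled days and library set cannot be told apart in these differences. Without both OSK day 0 and GFP day 1, 0 of the 3 were called.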

How the results depend on the processing

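No call of a member reversed its direction. Of 712 alternative values of called members, 553 stayed past the threshold in the same direction and 159 lost it. Without the fits that leave out a library or day the numbers were 270, 239 and 31. The counts of called members in this section are given without the share of all genes called in the same fits. They therefore do not tell a change in the members from a general change in calling. Members called in OvSvK over time numbered 9 with DESeq2 and 8 with limma, against 5. In GFP over time they numbered 5 with DESeq2, 3 with limma, 0 with the GC trend removed and 0 with no filter, against 1, and for OSK minus GFP 3 with DESeq2 and 1 each with limma and with the GC trend removed, against 0. DESeq2 called 2 and the fit with no filter 1 between OvSvK and OSK, and each called 1 without vitamin C against OSK, where edgeR called 0. DESeq2 called 2 without GSK3 inhibitors against without bFGF, in place of 1. With the GC trend removed, 1 was called without bFGF against OSK and 1 without bFGF against without vitamin C, in place of 4 and 3. Without both OSK day 0 and GFP day 1, chosen after seeing the data, 2 were called in OSK over time, 0 in GFP and 0 for OvSvK minus GFP. The cause was not tested.

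Leaving out 1 library or day at a time gave 1 to 11 called members for OSK against GFP, 0 to 2 for OvSvK against OSK, 1 to 7 over OvSvK days, 3 to 11 over OSK days, 0 to 6 over GFP days, 0 to 3 for OSK minus GFP and 0 to 3 for OvSvK minus GFP. It gave 1 to 7 without GSK3 inhibitors, 0 to 5 without bFGF and 0 to 1 without vitamin C against OSK. Among the omissions it gave 1 to 8 (GSK3 inhibitors against vitamin C), 0 to 3 (GSK3 inhibitors against bFGF) and 0 to 6 (bFGF against vitamin C). In the omissions a whole day could not be left out, since no residual degrees of freedom remain, and single libraries were left out in its place, a choice made after seeing the data. The name rule gave 35 members at 1 TPM and 55 at 0.1 TPM. Depth limits the rest: 17 members had at most 38 counts in every library. Libraries of the same day were paired through day as a block in OSK against GFP, OvSvK against OSK and the omissions. The labels give no replicate numbers, so no pairing by replicate number could be tried.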
